A study of Mus musculus with 2 samples.

Results

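The cytosolic ribosomal protein genes were examined in a map of chromatin bound by PARIS in the mouse hippocampus. In the table that assigns peaks to genes, every peak was taken whose gene symbol is Rpl or Rps with a number, Rplp0, Rplp1, Rplp2 or Rpsa, with S6 kinase genes and pseudogenes named with -ps left out. This gave 220 of 99782 annotated peaks, assigned to 63 symbols. Of these, 61 symbols are protein-coding in GENCODE M21, and the other 7 peaks belong to the pseudogenes Rps4l and Rpl32l. The annotation holds 82 protein-coding genes that match the rule, 51 of the large and 31 of the small subunit, and all 82 were followed whether or not a peak was assigned to them.

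The study used CUT&Tag, in which an antibody brings a transposase to a chromatin protein and the cut fragments are sequenced, on hippocampus of CamK-PARIS mice on the C57BL/6J background. One library was made with anti-FLAG and 1 with IgG as the negative control. The labels give the genotype only as CamK-PARIS, and neither the construct, the cells in which it is active, the age nor the number of mice. No mice without the transgene are among the samples, and no treatment was given. PARIS, also known as Zfp746, is a KRAB zinc finger protein that represses transcription and is removed through parkin. Peaks were called on the anti-FLAG library against the IgG library, and an IgG signal was not analysed here. With 1 library there is no replicate error and no test: all values below describe this library, and each interval is a Wilson 95% interval that covers counting error over genes or peaks only. Sequencing depth is unknown. Signal is in the units of the track given to the peak caller, whose scaling is not given in the sources used here. Both the map and the sequences below use mm10, also called GRCm38.

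Cytosolic ribosomes are built from a large subunit, which holds the peptide bond-forming centre, and a small subunit, which reads the mRNA. Each protein is encoded by a single main gene with many processed pseudogenes, and these genes are among the most actively transcribed in most cells. Their mRNAs typically begin with a C followed by a run of pyrimidines, the 5′ terminal oligopyrimidine tract, through which the mTOR pathway and LARP1 control their translation. Their promoters are short, mostly lack a canonical TATA box, and often hold sites for ETS family factors such as GABPA.

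The starts of 6 genes with a peak are printed to show the sequence at such starts, 4 of them from the tallest peaks with a RefSeq window and Rps18 and Rpl15 because they hold both features that are marked. Each line gives 80 bases before and 20 bases from the RefSeq start on (GRCm38.p6, 5′ to 3′ along the gene). Capitals mark the ETS motif CCGGAAG, on either strand, and a run of C followed by at least 4 pyrimidines that begins within 5 bases of the start.
Rpl41, chr10:128549149-128549248, minus strand: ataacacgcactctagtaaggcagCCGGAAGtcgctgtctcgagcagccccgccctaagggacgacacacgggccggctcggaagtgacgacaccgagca
Rpl38, chr11:114668500-114668599, plus strand: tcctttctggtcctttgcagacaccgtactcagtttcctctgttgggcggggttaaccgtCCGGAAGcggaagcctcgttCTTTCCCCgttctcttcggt
Rps25, chr9:44407634-44407733, plus strand: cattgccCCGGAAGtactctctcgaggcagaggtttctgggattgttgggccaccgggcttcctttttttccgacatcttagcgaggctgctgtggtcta
Rpl37a, chr1:72711180-72711279, plus strand: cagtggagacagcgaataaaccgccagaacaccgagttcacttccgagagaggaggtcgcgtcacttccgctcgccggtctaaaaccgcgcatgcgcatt
Rps18, chr17:33955646-33955745, minus strand: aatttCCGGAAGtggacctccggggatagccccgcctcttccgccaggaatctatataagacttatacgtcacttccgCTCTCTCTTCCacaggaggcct
Rpl15, chr14:18270967-18271066, minus strand: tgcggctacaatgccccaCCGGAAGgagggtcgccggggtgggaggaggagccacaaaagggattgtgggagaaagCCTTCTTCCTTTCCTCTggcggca
Rpl41, Rps25 and Rpl38 all hold the ETS letters. Rpl37a holds neither marked feature in this window. The Rpl41 peak reached from -70 to 627 bases relative to the RefSeq start, and that of Rpl15 from -50 to 56, so that the ETS letters of Rpl15 lie before its peak.

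The next 4 lines give the same windows of genes with no peak within 1 kb of the start, Rpl7a, Rps10, Rps27 and Rpl4, chosen after their sequences were seen.
Rpl7a, chr2:26910727-26910826, plus strand: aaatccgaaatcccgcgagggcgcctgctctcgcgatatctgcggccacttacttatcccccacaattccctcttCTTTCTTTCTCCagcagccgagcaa
Rps10, chr17:27635225-27635324, minus strand: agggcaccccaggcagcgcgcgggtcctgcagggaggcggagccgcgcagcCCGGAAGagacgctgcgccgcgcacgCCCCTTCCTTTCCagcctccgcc
Rps27, chr3:90213629-90213728, minus strand: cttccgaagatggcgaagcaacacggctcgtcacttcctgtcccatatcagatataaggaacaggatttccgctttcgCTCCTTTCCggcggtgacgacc
Rpl4, chr9:64173307-64173406, plus strand: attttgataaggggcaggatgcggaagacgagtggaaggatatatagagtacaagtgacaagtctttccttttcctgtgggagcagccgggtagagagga
Rpl7a, Rps10 and Rps27 carry a pyrimidine run of 12, 13 and 9 bases, so that the run stands at starts with and without a peak.

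A peak lay within 1 kb of the gene start in 48 of the 82 genes, a share of 58.5% (47.7 to 68.6%), beside 39.3% of 21938 protein-coding genes. Large subunit genes had such a peak in 33 of 51 (64.7%, 51.0 to 76.4%) and small subunit genes in 15 of 31 (48.4%, 32.0 to 65.2%), and these intervals overlap. The comparison lists were close: 43 of 78 mitochondrial ribosomal genes (55.1%, 44.1 to 65.7%), whose proteins translate the mitochondrial genome, and 27 of 49 proteasome subunit genes (55.1%, 41.3 to 68.1%) had one. Ribosome biogenesis genes, such as nucleolin and fibrillarin, had one in 12 of 24, and other genes with oligopyrimidine starts, such as elongation and initiation factors, 10 of 16 (62.5%). Each of these list shares lay within the interval of the cytosolic ribosomal protein genes, and no difference between lists was tested.

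The share stayed above that of all protein-coding genes under 3 stricter definitions. A peak that was not of constant height lay at 33 starts (40.2%, 30.3 to 51.1%, beside 27.8%). Constant height means that total signal is at least 99% of maximum signal times width, a flat block. A peak among the top 10% by total signal lay at 17 starts (20.7%, 13.4 to 30.7%, beside 13.6%), and this interval holds the all-gene share. A peak overlapped the start base itself in 28 genes (34.1%, 24.8 to 44.9%, beside 20.4%). Of the 48 starts with a peak, 16 had as their tallest peak one of constant height (33.3%), beside 31.5% over all starts with a peak.

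**Figure D1:**
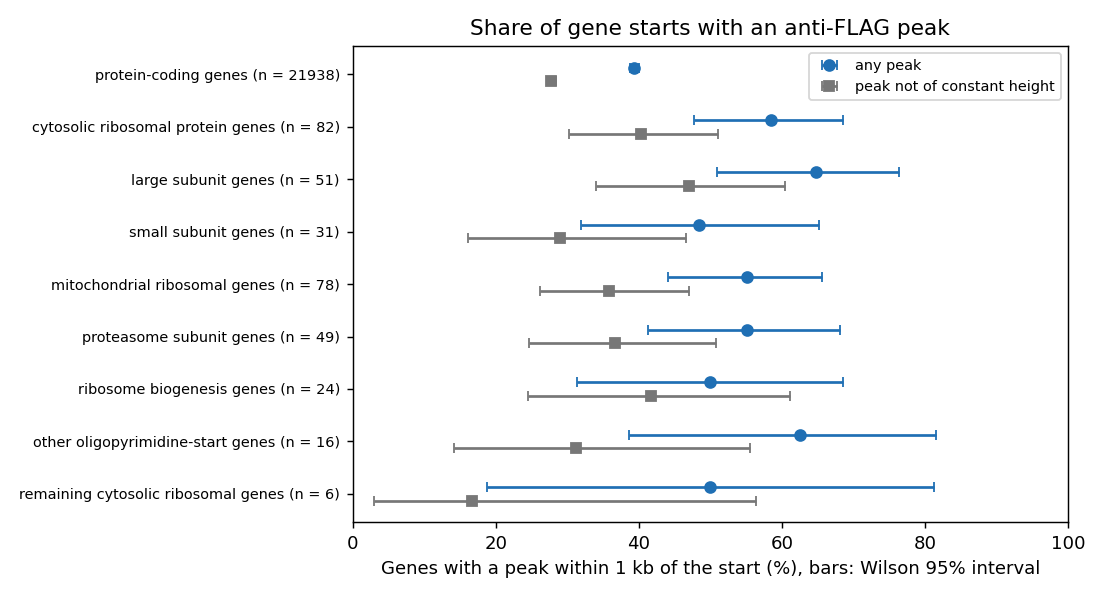
Share of genes with a peak within 1 kb of the start (x axis, percent) by gene list (y axis), for any peak (circles) and for a peak that is not of constant height (squares), with Wilson 95% intervals. Cytosolic ribosomal protein genes stand at 58.5% against 39.3% of all protein-coding genes, and the mitochondrial ribosomal and proteasome lists at 55.1% each.

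Among the 48 genes the tallest peak at the start had a median maximum signal of 166.5 (95% interval from order statistics 121 to 193, quartiles 113.75 and 214.25, range 28 to 394). The same median was 136 over all genes with a start peak, which lies inside that interval. It was 135 for mitochondrial ribosomal, 125 for proteasome, 129 for other oligopyrimidine-start and 188.5 for ribosome biogenesis genes. A maximum above the all-gene median was seen in 28 of 48 (58.3%, 44.3 to 71.2%), and 5 of 48 (10.4%) reached the top 10%, which begins at 299. Among peaks with a maximum above the median of all peaks, the medians were 177 and 173, and among peaks at least 200 bp wide 177 and 143. The ribosomal median was the higher in each setting that has an all-gene value, and each interval held that value. A difference in height was not tested.

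The tallest start peak was at Rpl23a, a protein near the exit of the peptide tunnel, at chr11:78183173-78184064 with a maximum signal of 394, and the deposited table assigned it to the small nucleolar RNA gene Snord42b, hosted within Rpl23a. Rpl41, which encodes the shortest ribosomal protein, had 352 at chr10:128548541-128549238. Rpl38, whose protein is known for control of Hox mRNA translation, had 333 in the widest start peak, 2116 bp at chr11:114667718-114669833. Rpl37a had 282 at chr1:72710118-72711604, Rpl39 had 255 at chrX:37085475-37085661, and Rpl11, a regulator of p53 through Mdm2, had 246 at chr4:136052539-136053162. Rps25, needed for translation from some viral internal ribosome entry sites, was the tallest of the small subunit with 321 at chr9:44407015-44407736. That peak was assigned to Trappc4, whose start lies 461 bp from that of Rps25, so the 2 genes cannot be told apart there. Other large subunit genes with high start peaks were Rpl12 with 241, Rpl18 with 238 and Rpl36 with 206, and in the small subunit Rps19 had 229 and Rps18 had 214. The start of Lrsam1 lies 55 bp from that of Rpl12 and the start of Vps52 189 bp from that of Rps18, so these pairs cannot be told apart either. In all, 8 of the 48 genes with a start peak have another protein-coding start within 1 kb, and the deposited table assigned 7 of the 48 peaks to another symbol.

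At the low end were Rps15a with 28, Rpl13a with 44, Rpl29 with 52 and Rpl19 with 70. The lateral stalk, where elongation factors bind, was uneven. Rplp0, its base, had a start peak of 92 and Rplp2 one of 173, while Rplp1 had none within 1 kb and its nearest peak lay 2484 bp away. Rpsa, which also encodes the laminin receptor precursor, had 133 in a 922 bp peak that covered its start. Of the small subunit genes, Rps19, the most often mutated gene in Diamond-Blackfan anaemia, had 229 and Rps6, the target of S6 kinases, 121. In all, 10 of 19 Diamond-Blackfan genes had a start peak (52.6%, 31.7 to 72.7%). This interval holds both the 58.5% of the whole set and the 39.3% of all protein-coding genes.

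**Figure D2:**
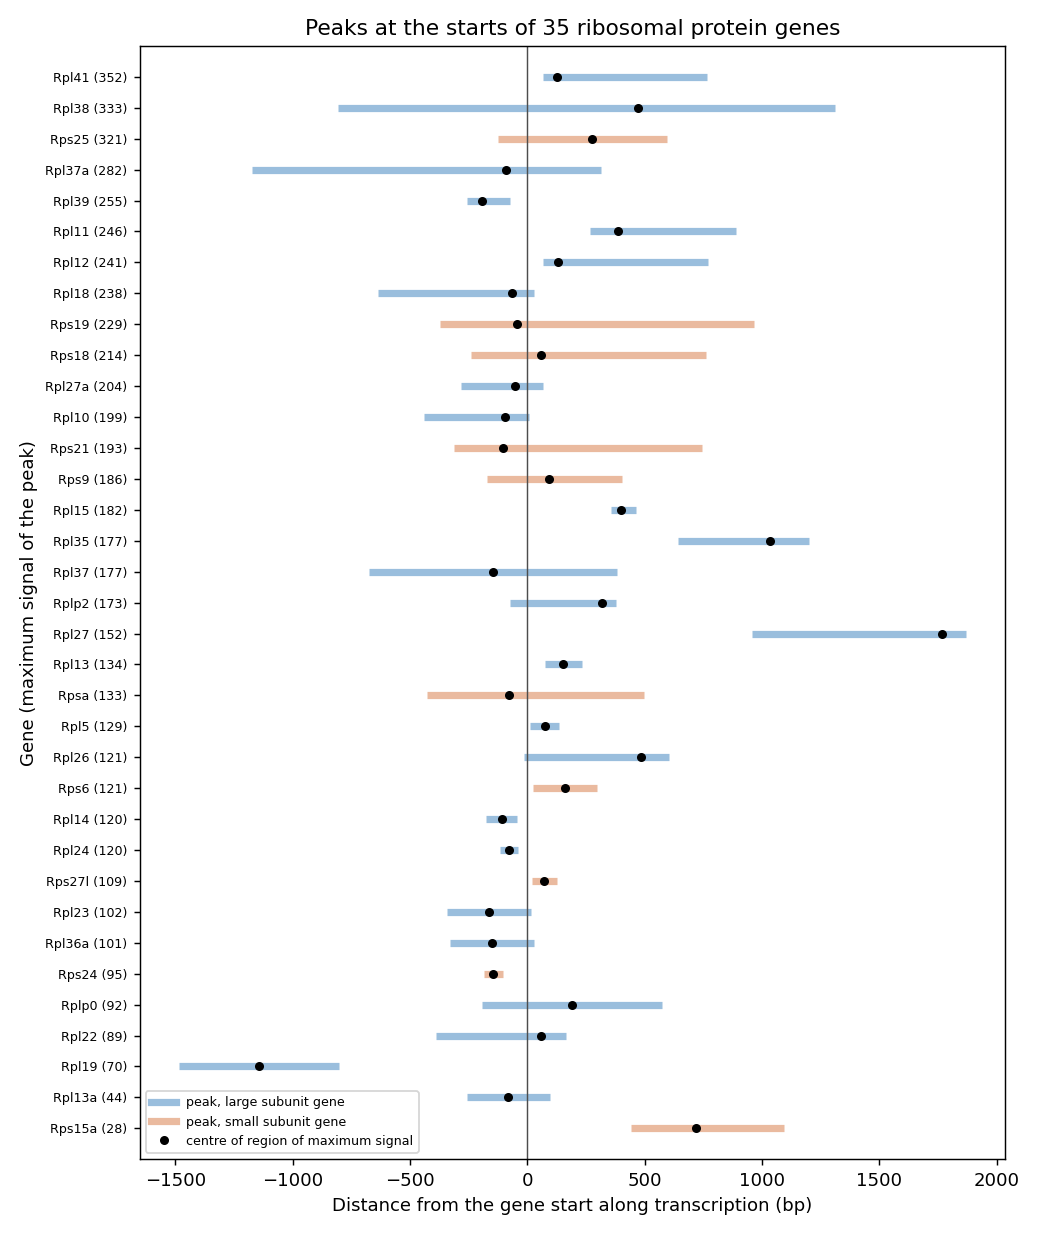
Extent of the tallest start peak of each of the 35 genes that have a start peak and a RefSeq promoter window (y axis, with its maximum signal in brackets) relative to the gene start (x axis, bp along transcription), blue for large and orange for small subunit genes, with a dot at the centre of the region of maximum signal. The dots of 25 of these genes lie within 200 bp of the start, and Rpl27, Rpl35 and Rpl19 have theirs over 1 kb away.

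The centres of the region of maximum signal clustered near the start. Their median offset was 66 bp downstream (95% interval from order statistics -64 to 154 bp, quartiles -93.25 and 281.25 bp), beside 46 bp over all start peaks. The interval reaches to both sides of the start, and 27 centres lay downstream and 21 upstream. In 31 of 48 genes (64.6%) the centre lay within 200 bp of the start, beside 38.1% of 8631 genes with a start peak, 18 of 43 (41.9%) mitochondrial ribosomal and 9 of 27 (33.3%) proteasome genes. The 200 bp limit was set after the values were seen. Placement depends on which start the annotation gives: the Rpl18 peak, at the GENCODE start, lies at -3249 to -2587 bp of the RefSeq start, and the Rps24 peak at its gene record had a maximum of 95, whereas a peak of 301 at chr14:24490571-24490725 lay at a start used by other transcripts. The peak of 95 was assigned to Polr3a, whose start lies 67 bp from that of the Rps24 gene record, so this pair cannot be told apart there. With any RefSeq start, 36 of 62 genes in that table (58.1%) had a peak within 1 kb, beside 42.3% of all protein-coding genes in it.

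No peak lay within 1 kb of the start of 34 genes. Among these were Rpl4, Rpl6, Rpl7, Rpl7a, Rpl9, Rpl10a, Rpl10l, Rpl21, Rpl22l1, Rpl28, Rpl30, Rpl31, Rpl34, Rpl35a, Rpl39l, Rpl3l, Rpl7l1, Rplp1, Rps2, Rps3, Rps4x, Rps7, Rps10, Rps12, Rps13, Rps15, Rps16, Rps23, Rps26, Rps27, Rps28 and Rps29. Their nearest peak was a median of 6892 bp away (1060 bp at Rpl31 to 56371 bp at Rps29), beside 11317 bp for all genes without a start peak. Counting every annotated transcript start added Rpl31, Rpl34, Rpl6 and Rps2. Since a peak depends on the caller's threshold, absence from the list is not absence of signal. Of the paralogs Rpl3l (striated muscle), Rpl10l (testis), Rpl7l1, Rpl22l1, Rpl39l and Rps27l, 1 of 6 had a start peak (16.7%, 3.01 to 56.4%), an interval that holds the 39.3% of all protein-coding genes. It was Rps27l, a p53 target, with a maximum of 109. Among cytosolic ribosomal genes outside the naming rule, Fau had a start peak of 127 and Rps27rt one of 71, whereas Rps3a1, Rack1 and Rpl36al had none.

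Features near the genes were compared with the share. Another protein-coding start lay within 1 kb of 15 of the 82 (18.3%), beside 12.6% of all genes. Without such a neighbour 40 of 67 (59.7%) had a peak, beside 36.9%, and with one 8 of 15 (53.3%), beside 56.4%. Over all genes the share with a start peak was higher in promoters of higher GC content, from 13.04% in the lowest quartile through 32.1% and 51.1% to 62.7% in the highest. In ribosomal protein genes the counts were 5 of 7, 19 of 34, 19 of 34 and 5 of 7, that is 71.4%, 55.9%, 55.9% and 71.4%. Median GC was 55.2% in those with a peak and 55.0% in those without, beside 60.3% and 51.0% over all genes. The part of GC content in these shares was not tested. Processed pseudogenes of ribosomal protein genes had a peak within 1 kb in 17 of 287 (5.92%), beside 541 of 9940 (5.44%) over all processed pseudogenes.

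**Figure D3:**
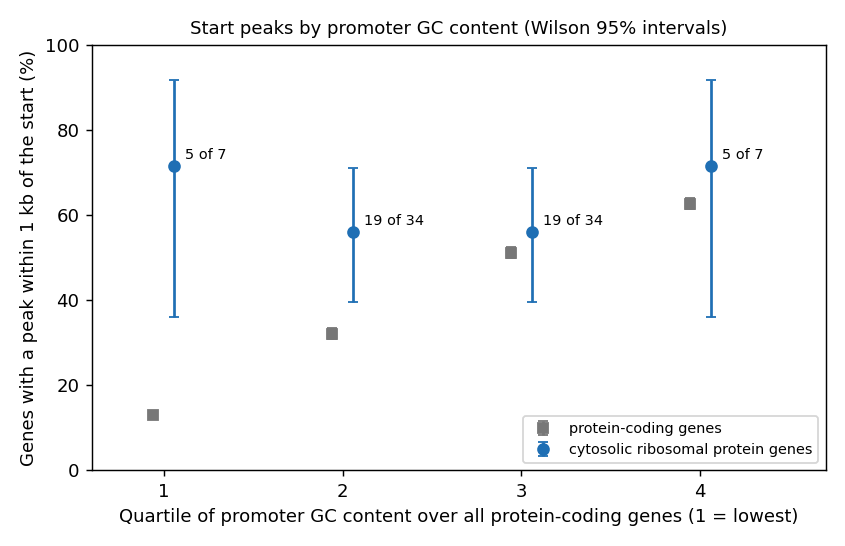
Share of genes with a start peak (y axis, percent) by quartile of promoter GC content over all protein-coding genes (x axis), for all genes (squares) and ribosomal protein genes (circles, counts beside them), with Wilson 95% intervals. All genes go from 13.04% to 62.7%, whereas the ribosomal protein genes lie between 55.9% and 71.4% in each quartile.

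PARIS is known to bind an insulin response sequence, TATTTTT or TATTTTG. The motif was searched on both strands from 250 bases before to 50 bases after the start. It occurred in 8 of 82 ribosomal protein promoters (9.76%), beside 10.1% of all protein-coding promoters, in 6 of 48 with a start peak and 2 of 34 without. With 500 bases before the start it stood in 14 of 48 with a start peak (29.2%) and 10 of 34 without (29.4%). The lines give the sites in these 8 genes with 15 bases to each side (GRCm38.p6, gene strand, motif in capitals), shown because the motif is the one tied to this factor.
Rpl41, chr10:128549312-128549348, minus strand: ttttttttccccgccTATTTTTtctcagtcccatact
Rpl38, chr11:114668301-114668337, plus strand: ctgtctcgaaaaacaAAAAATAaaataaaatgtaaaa
Rpl38, chr11:114668324-114668360, plus strand: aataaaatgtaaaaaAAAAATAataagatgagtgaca
Rps27, chr3:90213825-90213861, minus strand: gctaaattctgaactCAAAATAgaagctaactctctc
Rpl21, chr5:146832640-146832676, plus strand: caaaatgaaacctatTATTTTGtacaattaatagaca
Rpl32, chr6:115808917-115808953, minus strand: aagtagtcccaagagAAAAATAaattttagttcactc
Rpl13a, chr7:45128858-45128894, minus strand: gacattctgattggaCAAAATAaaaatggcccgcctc
Rpl29, chr9:106429317-106429353, plus strand: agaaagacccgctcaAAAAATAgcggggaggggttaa
Rpl14, chr9:120571296-120571332, plus strand: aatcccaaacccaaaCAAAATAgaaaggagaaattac
The sites of 4 of the 8 genes, Rpl38 (2 sites), Rpl13a, Rpl29 and Rpl14, lie inside a peak. Those of Rpl41 and Rpl32 lie outside the start peak of their gene, and Rps27 and Rpl21 have no start peak.

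Motifs of other promoter factors were counted in the same windows. These are placed at GENCODE starts, whereas the first printed lines are placed at RefSeq starts. The ETS letters printed for Rpl41, Rps25, Rps18, Rpl15 and Rps10 lie outside the counted windows. The ETS motif CCGGAAG stood in 22 of 82 promoters (26.8%, 18.4 to 37.3%), beside 10.8% of all, 34.6% of mitochondrial ribosomal and 32.7% of proteasome promoters, in 15 of 48 with and 7 of 34 without a start peak. The YY1 letters AAGATGG stood in 11 (13.4%, beside 6.22%), the GC box GGGCGG in 38 (46.3%, beside 43.0%), the TATA letters TATAAA in 9 (11.0%, beside 12.6%) and CCAAT in 25 (30.5%, beside 39.0%). CCAAT stood in 19 of 48 promoters with a start peak (39.6%, 27.0 to 53.7%) and 6 of 34 without (17.6%, 8.35 to 33.5%), with overlapping intervals. The YY1 letters went the other way, in 5 of 48 with (10.4%) and 6 of 34 without (17.6%). The GC box stood in 23 of 48 and 15 of 34, and the TATA letters in 5 of 48 and 4 of 34. A pyrimidine run at the start was found in 29 of 62 genes with a RefSeq window (46.8%, 34.9 to 59.0%), beside 21.8% of 16522 genes, 24.6% of mitochondrial ribosomal and 22.0% of proteasome genes. It occurred in 18 of 35 with a start peak (51.4%) and 11 of 27 without (40.7%), with overlapping intervals. This split mixes 2 starts, since the run was searched at RefSeq starts and the start peak was taken at GENCODE starts. Rps2 has a run and 3 peaks within 1 kb of its RefSeq start but is counted as without a start peak. Rpl18 and Rps24 have runs at RefSeq starts over 1 kb from the start peak that counts them as with. Each of them also has 2 other peaks within 1 kb of a RefSeq start, so they would count as with there too. A match is a description of letters and not of a bound site.

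Peaks assigned by nearest start were then followed away from promoters. Of the 220 peaks, 78 (35.5%, 29.4 to 42.0%) were in the promoter class, beside 24.6% of all peaks. A further 108 (49.1%) were distal intergenic, beside 31.9%, and 30 (13.6%) intronic, beside 38.0%. The intronic class takes introns of any gene. Of the 30, only the Rps14 peak at chr18:60763168-60763222 lay in its assigned gene, and the others lay in other protein-coding or lincRNA genes. Of all 220 peaks, 39 (17.7%) had the centre of their maximum signal inside the assigned gene. The median length of the 82 genes is 3328.5 bp, against 17425 bp for all protein-coding genes. Promoter peaks of the set had a median maximum signal of 131.5 (beside 110), and distal ones 97.5 (beside 97).

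The 6 symbols with the most peaks, Rplp1, Rps15a, Rps24, Rps29, Rpl29 and Rpl38, held 95 of the 220 peaks (43.2%), and without them the promoter share was 57.6% (72 of 125). Their peaks were mostly distal or intronic, so leaving them out was bound to raise this share. It has no counterpart over all genes and cannot be set against the 24.6% of all peaks. Rplp1 had 23, of which 22 were distal and reached 237329 bp from its start, while its sole promoter peak, at 2485 bp, lies within Kif23. Rps15a had 22, of which 20 were distal, as far as 287285 bp. Rps24 had 20, of which 10 were intronic, and all 10 of these lie in the lincRNA genes 4930428N03Rik and 4930542C16Rik. Its peak at chr14:24778349-24780264, in 4930428N03Rik and 288164 bp from its assigned start, had the highest maximum of all 220 peaks, 480. Rps29 had 14, none closer than 56504 bp and the farthest at 950472 bp. Rpl29 and Rpl38 had 8 each, and Rpl29 held a peak of 410 at chr9:106420927-106422041, at -8297 bp. These peaks are assigned by position, and no value here ties them to the gene. All 6 peaks assigned to the pseudogene Rps4l lie within Tmtc1, and all 6 of Rpl10l are distal, at 23953 to 293531 bp. For 113 of the 121 peaks over 10 kb away (93.4%), the named gene had the nearest protein-coding start. Because peaks were assigned by nearest start, this share is largely set by that rule and ties no peak to a gene.

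**Figure D4:**
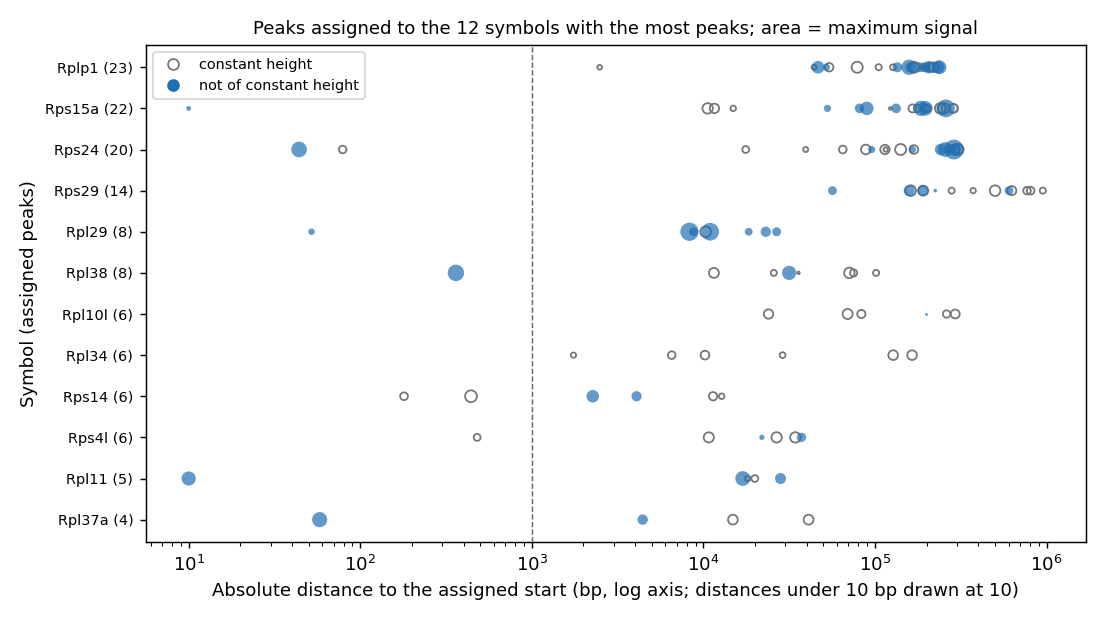
Absolute distance of each peak to its assigned start (x axis, bp, log axis) for the 12 symbols with the most peaks (y axis, number of peaks in brackets), area in proportion to maximum signal, open for constant height and filled otherwise, with a dashed line at 1 kb. Rplp1, Rps15a, Rps24 and Rps29 have most of their peaks beyond 10 kb, and Rps29 has none within it.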

How the data were processed

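CUT&Tag reads were trimmed, aligned with Bowtie2 to mm10, filtered for quality and duplicates, and peaks were called with SEACR against the IgG library, per the labels' protocols; versions are not given in the sources used here. The deposited peak list holds the total signal and maximum signal of each peak, a coverage signal made by the authors, with the region of maximum, and a deposited table assigns each region to a gene with its distance in bp, another quantity given by the authors. Signal in the 2 files agreed for 99782 of 99782 annotated peaks, of 99797 listed. Starts are the 5′ ends of GENCODE M21 genes; the peak with the highest maximum signal within 1 kb was taken. No peak passed the end of a reference chromosome (0 over 21 chromosomes). Python 3.11.15, pandas 2.3.3, numpy 2.4.6, scipy 1.17.1 and matplotlib 3.10.9 were used. The search of starts and offsets was tested on simulated data. Members, lists and definitions, constant height among them, were chosen with earlier results of these data known. All rule genes could be named, with full values for the 8 tallest and 4 lowest start peaks, stalk genes, Rpsa, paralogs and symbols with the most peaks. Some genes that the rule takes in are not reported here by name. Alternatives changed the peak filter, window and start.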

Additional observations from a re-analysis of the deposited data

How the results depend on the processing

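Of 42 alternatives to 6 results, 4 were added after seeing the data. Among the 42, 27 fell within the interval of the reported value, limits included, and 15 fell outside it and are called moved. A value within the interval can still differ: the median offset was 127 bp without constant-height peaks and 127 bp for the top 10% by total signal. The reported median offset was 66 bp, with an interval of -64 to 154 bp. The library allows no test, so a move is a change in a described share or median. The share of starts with a peak was 40.24% without constant-height peaks (all genes 27.77%), 47.56% for maximum signal above the median (27.6%), 20.73% for the top 10% by total signal (13.57%), 47.56% for peaks at least 200 bp wide (34.79%), 70.73% within 3 kb (49.43%) and 34.15% for peaks over the start (20.4%); it exceeded that of all genes under each of these. For the top 10% by total signal, the interval of the share of starts, 13.37 to 30.72%, holds the share of all genes. The promoter share was 44.76%, 44.88% and 56.25% under the first 3 filters (all peaks 32.69%, 27.63% and 45.84%), 27.73% within 1 kb (15.32%) and 57.6% without the 6 symbols with the most peaks. The last value has no counterpart over all peaks. The median maximum signal was 238 among the top 10% (all genes 233). The constant-height share fell to 17.95% for peaks at least 200 bp wide (23.35%), below that of all genes, the other way round from the reported value. The insulin response sequence stood in 29.27% with 500 bases before the start (23.66%) and 1.22% with 100 (3.332%). The causes of these moves beyond the change in filter or window were not tested. No paired analysis was possible because each antibody has 1 library.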
